A study of Saccharomyces cerevisiae with 12 samples.

Results

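The RNA of G2/M arrested rad30Δ cells was compared with that of G2/M arrested WT cells, before any galactose was added. The 6 libraries of these groups, 3 per strain, are part of a set of 12. The other 6 come from cells of both strains after 1 h in 2% galactose, which induces the HO endonuclease. Genes were taken into the description when they had at least 10 reads over the 12 libraries, which 6490 of the 7123 features in the count table did. Of these, 54 genes on lists of mating-type genes, with RAD30 itself, are described apart from the other 6436.

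The rad30Δ cells are labelled as deficient in Polη and the WT cells carry RAD30. Both are W303 derivatives that were grown in YEP medium with 2% raffinose and treated with 80 µg/ml benomyl, a microtubule poison, for 3 h. Galactose-inducible HO is part of the strains used for break induction, and some of those described also carry smc1-259, a temperature-sensitive cohesin allele, and galactose-inducible SMC1-MYC. The sources used here do not say which strain of each genotype was sequenced, nor whether those strains carried these cohesin alleles. The samples are numbered triplicates, and separate cultures are not named, so the p-values reflect only how these samples vary, which may be technical.

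RAD30 encodes Polη, a translesion DNA polymerase that copies past damaged bases such as ultraviolet photoproducts. In budding yeast haploid cells are of mating type a or α. The α cells express α1, which turns on the α-specific genes, and α2, which represses the a-specific genes, whereas a cells lack both proteins and express the a-specific set. The proteasome genes discussed further on are known targets of the transcription factor Rpn4, which is itself a rapidly degraded proteasome substrate.

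RAD30 (YDR419W, chromosome IV, 1303174 to 1305072, plus strand, R64) had 0 reads in each of the 3 rad30Δ libraries, against 40.4, 52.4 and 47.1 CPM (read counts divided by the TMM-scaled size of the library) in the WT libraries. A count of 0 allows up to 3 reads in each library, on average 0.445 CPM, and by that limit RAD30 was at least 105-fold lower in rad30Δ cells, a bound that covers counting error only. The 3 tested genes on each side of RAD30 had log2 fold changes (rad30Δ over WT) between -0.18 for SIP1 and 0.22 for HKR1, and none passed the test.

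Total reads were between 6260558 and 7289514 in the rad30Δ libraries and between 6244219 and 7078155 in the WT libraries. Markers of mitosis had summed levels of 858 to 875 CPM in rad30Δ cells, against 863 to 987 CPM in WT cells, over 5 genes of which CLB1, a mitotic cyclin, was lower. The 5 markers of G1 summed to 381 to 422 CPM in rad30Δ cells, against 389 to 438 CPM in WT cells, with 0 of 5 called. The 4 S-phase markers, all core histone genes, summed to 1773 to 1993 CPM in rad30Δ cells, against 2397 to 2722 CPM in WT cells, with 3 of 4 lower. No marker of these lists was at 0 in either strain. These are bulk samples, in which fewer cells of one kind and less RNA per cell cannot be told apart.

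Across all 6490 genes, edgeR's quasi-likelihood test with a Benjamini-Hochberg adjusted p below 0.05 called 306 genes higher (4.71%) and 396 lower (6.1%) in rad30Δ cells, 702 in all (10.8%). Most differences were small. The median absolute log2 fold change of the called genes was 0.45, and 23 higher and 37 lower genes passed a 2-fold change. In 699 of the 702 the libraries of the strains did not overlap, where over all genes 15.7% were higher and 16.6% lower without overlap. Outside the mating-type lists 290 genes were higher, with a median log2 fold change of 0.41, and 383 were lower, with a median of -0.47. Of these, 14 higher and 27 lower genes passed 2-fold.

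The numbers of higher and of lower genes rested on every G2/M library. All 306 higher genes came from 3 libraries against 3, and with any 1 of the 6 left out their number was 131 to 198. Without replicate 3 of the rad30Δ galactose group, whose spread enters the shared error, it was 528. Lower genes, 396 in the full fit, numbered 248 to 300 with any 1 of those 6 left out, the fewest without WT replicate 2. Without replicate 3 of the rad30Δ galactose group they numbered 577.

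The mating-type genes set the strains apart more than any other list. All 5 α-specific genes were higher and all 7 a-specific genes were lower in rad30Δ cells, with medians of 4.88 and -3.56 on the log2 scale, against -0.00111 over all genes. Summed over the list, the α-specific genes reached 5885 to 6414 CPM in rad30Δ cells, against 211 to 234 CPM in WT cells. The a-specific genes summed to 82.4 to 102 CPM in rad30Δ cells, against 1627 to 1763 CPM in WT cells. This is how an α culture differs from an a culture. The labels give no mating type, and differences between these strains therefore cannot be told apart into those of the RAD30 deletion, of mating type and of any other strain difference.

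MF(ALPHA)1, which encodes the α-factor pheromone, had 3657, 3363 and 3661 CPM in rad30Δ cells, against 97.4, 95.0 and 91.1 CPM in WT cells. STE3, the receptor for a-factor, had 663, 634 and 551 CPM in rad30Δ cells, against 9.65, 10.5 and 12.5 CPM in WT cells. The log2 fold changes were 5.23 ± 0.12 and 5.83 ± 0.15 (SE, edgeR adjusted p = 8.02e-12 and 2.41e-11). No library of one strain came near those of the other for these genes. SAG1, the α-agglutinin of the cell surface, had 417, 399.7 and 405 CPM in rad30Δ cells, against 59.9, 59.5 and 55.9 CPM in WT cells.

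Among the a-specific genes, STE2, the α-factor receptor, had 13.4, 17.7 and 17.2 CPM in rad30Δ cells, against 556, 554 and 596 CPM in WT cells. MFA2, a gene for the a-factor pheromone, had 12.3, 11.03 and 16.2 CPM in rad30Δ cells, against 499, 452 and 495 CPM in WT cells. Both lay more than 5 log2 units lower in rad30Δ cells (-5.14 ± 0.12 and -5.20 ± 0.20, SE). BAR1, the protease that degrades α-factor, differed by -3.23 and ASG7, the member of the list with the smallest difference, by -2.05.

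**Figure D1:**
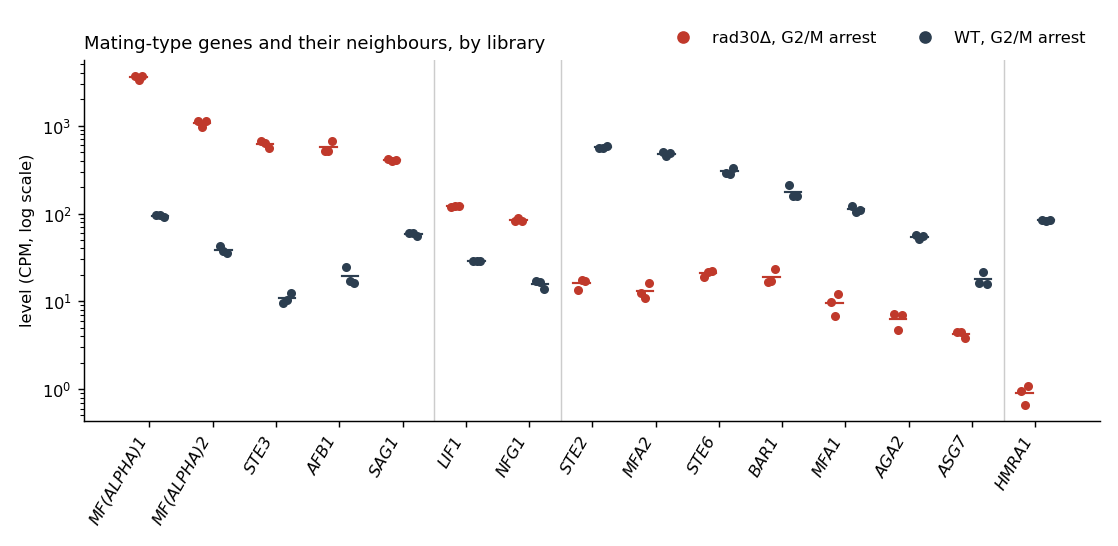
Level of 15 genes in CPM (log axis) in the 3 rad30Δ libraries (left of each pair, red) and the 3 WT libraries (right, dark), with a bar at each mean. From the left stand 5 α-specific genes, 2 genes beside them, 7 a-specific genes and HMRA1; in every one the libraries of the strains lie apart, as with STE2 at 13.4 to 17.7 CPM in rad30Δ cells, against 554 to 596 CPM in WT cells.

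The α2 protein binds operators upstream of the a-specific genes. The letters CATGTAA, part of that operator, stood on either strand in 6 of the 7 promoters of this list (85.7%), from 250 bases before to 50 bases after the gene start, against 3.75% of 5873 promoters read. Windows of 30 bases around the letters are shown for 3 of the genes named here, from the R64 sequence, 5′ to 3′, on the strand that carries them, with the match in capitals.
STE2, chrVI:82340-82369, plus strand: gttttttcaacCATGTAAatttcctaattg
MFA2, chrXIV:352176-352205, minus strand: tggcatccatgtCATGTAAatttcccgaat
STE6, chrXI:46489-46518, minus strand: attttttttgcCATGTAAttacctaatagg
The match lies 223, 221 and 206 bases before the gene start for STE2, MFA2 and STE6.

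Of 4 genes listed as lying beside mating-type genes 2 were higher, 1 was lower and YLR041W did not pass (-2.10, adjusted p = 0.0579). LIF1, the partner of DNA ligase IV in end joining, had 118, 121 and 123 CPM in rad30Δ cells, against 28.5, 28.4 and 28.9 CPM in WT cells (log2 fold change 2.08 ± 0.08, SE, adjusted p = 2.52e-09). Its end faces that of MF(ALPHA)2 on chromosome VII (LIF1 343319 to 344584 on the plus strand, MF(ALPHA)2 344791 to 345153 on the minus strand). The sources used here do not give the strandedness of counting. Reads of facing genes cannot be told apart where their transcripts overlap. NFG1, which lies upstream of the α-specific gene AFB1, had 81.9, 88.9 and 82.7 CPM in rad30Δ cells, against 17.0, 16.6 and 13.7 CPM in WT cells. RDT1, at the recombination enhancer of chromosome III, had 0, 0.133 and 0.154 CPM in rad30Δ cells, against 19.8, 21.5 and 20.5 CPM in WT cells. YNL146C-A, near MFA2 and named after its values were seen, had 0, 0.266 and 0 CPM in rad30Δ cells, against 3.17, 2.69 and 3.23 CPM in WT cells.

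HMRA1, the a1 gene at the silent cassette HMR, had 0.947, 0.664 and 1.08 CPM in rad30Δ cells, against 83.9, 82.7 and 84.3 CPM in WT cells. The MAT, HML and HMR loci share near-identical copies, so the copy from which these reads came is uncertain. HMLALPHA1 was listed at 1.10, 0.531 and 0.770 CPM in rad30Δ cells, against had 0 reads in the WT libraries, at least 1.82-fold higher by the same limit.

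Genes of pheromone signalling used by both mating types differed less. Of 32 tested, 8 were higher and 3 lower, with a median of 0.05, where 4.71% of all genes were higher and 6.1% lower. Single members differed more than the median, with log2 fold changes from -0.41 to 1.98. SST2, the regulator that shuts off the pheromone G protein, had 82.7, 94.3 and 91.6 CPM in rad30Δ cells, against 50.7, 54.9 and 55.6 CPM in WT cells (0.74 ± 0.09, SE, adjusted p = 0.000104). FUS1, a cell fusion gene, had 22.6, 21.8 and 23.3 CPM in rad30Δ cells, against 15.8, 14.7 and 13.4 CPM in WT cells. The 3 lower genes were STE11 (-0.34), a kinase of the pathway, KAR4 (-0.41), a transcription factor of mating, and AXL1 (-0.26), a protease that matures a-factor.

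Outside the mating-type genes, the proteasome list differed in nearly all of its genes. Of its 43 genes, which cover the core particle, the regulatory particle and factors around them, 41 were lower and 0 higher in rad30Δ cells, where 6.1% of all genes were lower. The median log2 fold change was -0.62, against -0.00119 outside the mating-type lists. Summed over the list, the levels were 13056, 13069 and 13539 CPM in rad30Δ cells, against 19921, 20074 and 20168 CPM in WT cells. The 6 values fall into separate ranges, each narrower than the gap between them.

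Within the core particle, which holds the proteolytic sites, PRE2 had 347, 340.5 and 340.0 CPM in rad30Δ cells, against 572, 562 and 567 CPM in WT cells (-0.73 ± 0.06, SE, adjusted p = 1.23e-05). PRE10 had 344, 335 and 337 CPM in rad30Δ cells, against 554, 548 and 560.0 CPM in WT cells (-0.71 ± 0.06, SE, adjusted p = 5.04e-06). In the regulatory particle, which unfolds substrates, RPN11, the deubiquitinase of the lid, had 247, 244 and 219 CPM in rad30Δ cells, against 391, 385 and 371 CPM in WT cells. Replicates of these genes differed little next to the strain difference. The ATPase gene RPT2 had 476, 463 and 541 CPM in rad30Δ cells, against 726, 702 and 724 CPM in WT cells.

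Factors that act with the proteasome were lower too. ECM29, which tethers core and regulatory particles, had the largest difference of the list, with 126, 129 and 119 CPM in rad30Δ cells, against 242, 256 and 269.5 CPM in WT cells (-1.03 ± 0.07, SE, adjusted p = 1.13e-06). UFD1, a cofactor of the segregase Cdc48, had 127, 128 and 116 CPM in rad30Δ cells, against 223, 228 and 217 CPM in WT cells, and NPL4, its partner, differed by -0.80. CDC48 itself had 711, 697 and 750.0 CPM in rad30Δ cells, against 1053, 1136 and 1147 CPM in WT cells. The members that did not pass were RPN1 and RPN4. RPN1 had 459.9, 458 and 572 CPM in rad30Δ cells, against 952, 728 and 664 CPM in WT cells, without overlap but with a wide spread (-0.65 ± 0.32, SE, adjusted p = 0.255). RPN4, the transcription factor, had 318, 361 and 319 CPM in rad30Δ cells, against 293, 324 and 291 CPM in WT cells (0.14 ± 0.14, SE, adjusted p = 0.644).

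The proteasome-associated control element, the letters GGTGGCAAA bound by Rpn4, was looked for on both strands in the same promoter windows. It stood in 71 of 5873 promoters (1.21%), in 29 of the 43 promoters of the proteasome list (67.4%), in 48 of 382 promoters of called lower genes outside the mating-type lists (12.6%) and in 0 of 283 promoters of called higher genes. These counts overlap, since the proteasome genes are in each of the first 3. A match is a description of the letters, not of binding. The 71 genes hold 60 distinct elements, because 11 elements lie in the windows of neighbouring divergent genes and count for both. The windows below show the element, in capitals, for genes of the proteasome list and then for genes outside that list that were also lower.
PRE2, chrXVI:732184-732213, plus strand: acagcaaaagGGTGGCAAAacgaagaatag
PRE10, chrXV:1018855-1018884, minus strand: cctctaaatcGGTGGCAAAaataagaaagt
RPT2, chrIV:437906-437935, plus strand: gtttttctccGGTGGCAAAtgtctcttttc
RPN11, chrVI:153259-153288, plus strand: ggacctccaaGGTGGCAAAttcacaagaaa
ECM29, chrVIII:39943-39972, plus strand: gccttttcttGGTGGCAAAaaaaaggtact
CDC48, chrIV:238786-238815, minus strand: atgtgaattcGGTGGCAAAaaaggacatat
SDH9, chrX:355850-355879, plus strand: ggttccacaaGGTGGCAAAaaaggcaatcc
CUZ1, chrXIV:342315-342344, plus strand: ccctcctttcGGTGGCAAAagcatgttcta
UBA1, chrXI:39024-39053, plus strand: aaaaggtgcgGGTGGCAAAtaaaggtaaaa
YAP1, chrXIII:253792-253821, minus strand: taaacgttttgGGTGGCAAAaaacttccct
The flanks differ between genes, and only the element itself is shared by all 10 windows.

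Of the 71 genes with the element, 48 were lower and 0 higher (67.6% lower, median -0.54). The 42 that are not in the proteasome list had 20 lower, 39 with a log2 fold change below 0, and a median of -0.38. The 14 proteasome genes without these letters in the window had 13 lower and a median of -0.60. Lower genes with the element outside the proteasome list have varied roles. SDH9, a paralog of a succinate dehydrogenase subunit, had 9.94, 14.7 and 15.2 CPM in rad30Δ cells, against 38.3, 43.8 and 36.9 CPM in WT cells (-1.57 ± 0.14, SE, adjusted p = 1.64e-05). CUZ1, a cofactor of Cdc48 and the proteasome, had 90.0, 96.2 and 106 CPM in rad30Δ cells, against 199, 197 and 208 CPM in WT cells. YAP1, the transcription factor of the oxidative stress response, had 272, 273 and 312 CPM in rad30Δ cells, against 466, 438 and 473 CPM in WT cells, and UBA1, the ubiquitin-activating enzyme, had 332, 322 and 296 CPM in rad30Δ cells, against 478, 506 and 499.6 CPM in WT cells.

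Of the 11 elements in the windows of divergent genes, 4 had both genes lower, 5 had 1 gene lower and 2 had none. RPN11 and YPI1 (-0.69 and -0.47) share an element and were both lower. RPN5, a lid subunit, shares one with NOP14, a ribosome biogenesis gene, and had a log2 fold change of -0.37 against -0.0038 for NOP14. NOP14 had 183, 169.6 and 203 CPM in rad30Δ cells, against 181, 168 and 208 CPM in WT cells.

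Genes of the mitochondrial ribosome ran the other way. Of 77, 42 were higher and 0 lower in rad30Δ cells, where 4.71% of all genes were higher, and 75 had a log2 fold change above 0, with a median of 0.44. Their summed level was 20265, 19729 and 21187 CPM in rad30Δ cells, against 15999, 14998 and 14904 CPM in WT cells. The difference of each gene was modest. MRP51, of the small subunit, had 409, 404 and 428 CPM in rad30Δ cells, against 298, 302 and 286 CPM in WT cells (0.49 ± 0.07, SE, adjusted p = 0.000517). MRPL6, of the large subunit, had 246, 225 and 248 CPM in rad30Δ cells, against 169, 164 and 163 CPM in WT cells (0.54 ± 0.09, SE, adjusted p = 0.0024). The number called moved with single libraries: it was 15 without WT replicate 2 or 3, 24 without WT replicate 1, 20 and 19 without rad30Δ replicate 1 or 3, and 71 without replicate 3 of the rad30Δ galactose group.

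Of 34 cytosolic and mitochondrial tRNA synthetases 6 were higher, 0 lower and 28 did not pass, where 4.71% of all genes were higher. The 6, ISM1, DIA4, MSF1, MSD1, MSE1 and MST1, encode mitochondrial enzymes. ISM1, the isoleucyl enzyme, had 219, 236 and 211 CPM in rad30Δ cells, against 137, 133 and 138 CPM in WT cells (0.71 ± 0.10, SE, adjusted p = 0.000444). The mitochondrial chaperonins HSP60 and HSP10 differed by 0.47 and 0.42. Of 45 genes of the respiratory chain and ATP synthase, 5 were higher, with TIM11 at 0.39, and 1, SDH9, was lower. None of 7 genes of the mitochondrial genome was called (0 by edgeR). Reads of that genome made up 0.0289, 0.0296 and 0.0744% of the rad30Δ libraries and 0.0646, 0.0258 and 0.0114% of the WT libraries, so they vary between replicates as much as between strains.

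**Figure D2:**
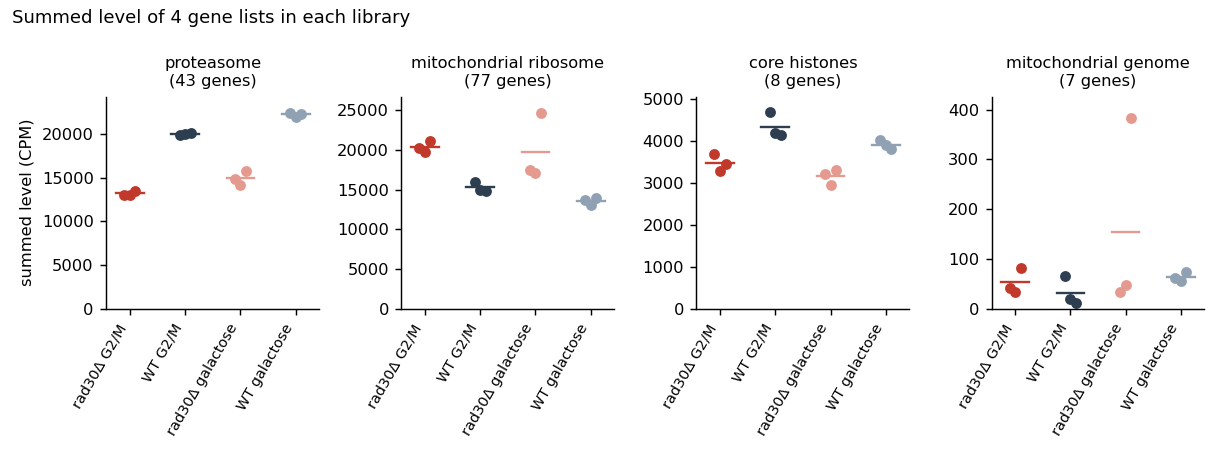
Summed level (CPM) of 4 gene lists in each of the 12 libraries, with rad30Δ left of WT in G2/M arrest and again after galactose, and a bar at each mean. The 43 proteasome genes sum to 13056 to 13539 CPM in rad30Δ cells, against 19921 to 20168 CPM in WT cells in G2/M arrest, the 77 mitochondrial ribosome genes lie higher in rad30Δ cells, the core histones lower, and the 7 genes of the mitochondrial genome overlap.

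The messages of mitochondrial ribosomal proteins are known to carry an element bound by the RNA-binding protein Puf3 after the stop codon. The letters TGTANATA were looked for on the gene's strand in the 200 bases after each of 5814 genes, a search added after the values were seen. They stood after 829 genes (14.3%), 75 of the 77 mitochondrial ribosome genes, 135 of 283 called higher genes (47.7%) and 36 of 382 called lower genes (9.42%). Of the 754 genes with the element outside the mitochondrial ribosome list, 93 were higher (12.3%) and 36 lower (4.77%), with a median of 0.07. Among all 5814 genes read, 4.87% were higher and 6.57% lower, with a median of -0.0061. PUF3 had 56.2, 53.5 and 48.7 CPM in rad30Δ cells, against 45.2, 48.2 and 49.3 CPM in WT cells (0.15 ± 0.11, SE, adjusted p = 0.491). The count of 135 fell to between 55 and 89 when any 1 of the 6 G2/M libraries was left out, and was 238 without replicate 3 of the rad30Δ galactose group.

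**Figure D3:**
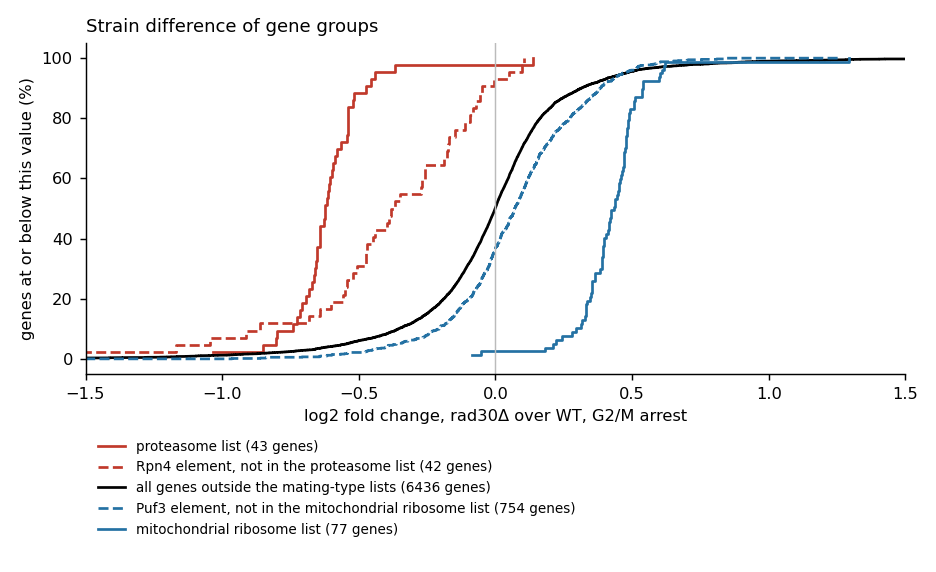
Cumulative share of genes (%) at or below each log2 fold change (rad30Δ over WT, G2/M arrest) for 5 groups of genes outside the mating-type lists, with the axis ending at 1.5 on both sides. The proteasome list (median -0.62) and the other genes with the Rpn4 element (median -0.38) lie left of all genes, and the mitochondrial ribosome list (median 0.44) lies right of them.

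Of 46 genes listed for the DNA damage response, 11 were lower and 0 higher, with a median of -0.13, where 6.1% of all genes were lower. LIF1, described above, is not on that list. MAG1, the glycosylase that removes alkylated bases, had 43.9, 36.1 and 42.4 CPM in rad30Δ cells, against 87.2, 83.3 and 90.7 CPM in WT cells (-1.10 ± 0.09, SE, adjusted p = 5.92e-06). DDI1, which shares its upstream region with MAG1, had 148, 162 and 179.9 CPM in rad30Δ cells, against 252, 251 and 249 CPM in WT cells. RAD52, a gene of homologous recombination, had 128, 132 and 121 CPM in rad30Δ cells, against 224, 215 and 219 CPM in WT cells (-0.79 ± 0.08, SE, adjusted p = 4.06e-05).

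For these genes too the strains did not overlap. RAD54, a motor protein of recombination, differed by -0.54, SGS1, a helicase, by -0.42, RAD59 by -0.60 and RAD50 by -0.30. The count of 11 was 7 without any 1 of the WT replicates 1, 2 and 3 or without rad30Δ replicate 1.

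All subunit genes of RPA, the protein that coats single-stranded DNA, were lower. RFA1 had 138, 146 and 122 CPM in rad30Δ cells, against 192, 202 and 193 CPM in WT cells (-0.53 ± 0.07, SE, adjusted p = 0.000312), and RFA2 and RFA3 differed by -0.29 and -0.27. Of 14 genes of translesion synthesis and damage tolerance 1 was lower and 0 higher, which is near the 6.1% of all genes that were lower and no result about the list. That gene, UBC13, a ubiquitin-conjugating enzyme, had 97.8, 91.3 and 105 CPM in rad30Δ cells, against 139, 140.3 and 145 CPM in WT cells (-0.53 ± 0.11, SE, adjusted p = 0.00698). POL30, the gene for PCNA, had 30.14, 25.4 and 28.0 CPM in rad30Δ cells, against 21.6, 18.6 and 20.9 CPM in WT cells and did not pass (adjusted p = 0.0653).

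Core histone genes were lower in 5 of 8, with 0 higher and a median of -0.37, where 6.1% of all genes were lower. HHF1 had 455, 404 and 402 CPM in rad30Δ cells, against 628, 619 and 569 CPM in WT cells (-0.53 ± 0.07, SE, adjusted p = 0.000313), and HTB1 had 421, 379 and 396 CPM in rad30Δ cells, against 633, 544 and 545 CPM in WT cells. HHT1, HTB2 and HTA2 differed by -0.42, -0.39 and -0.34. HHF2, HTA1 and HHT2 did not pass. Each core histone has a pair of near-identical genes, so the split between copies is uncertain. Of 54 genes of chromatin remodellers 3 were lower and 0 higher, and of 24 genes of histone chaperones 2 were lower, counts near the 6.1% of all genes that were lower and no result about these lists. The members called were SWC5 (-0.66), SWR1 (-0.53) and IES5 (-0.28), and SPT16 (-0.25) and MSI1 (-0.42).

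Genes of the general stress response were lower in 11 of 29, with 0 higher and a median of -0.32, where 6.1% of all genes were lower. GRE2, a reductase, had 62.5, 63.0 and 55.3 CPM in rad30Δ cells, against 124, 145 and 125 CPM in WT cells (-1.12 ± 0.09, SE, adjusted p = 5.92e-06). RTN2, a reticulon, had 91.8, 86.4 and 74.4 CPM in rad30Δ cells, against 156, 219 and 208 CPM in WT cells. MSN2, a transcription factor of this response, was lower by a small amount (-0.32). The count of 11 was 7 without WT replicate 2 or without rad30Δ replicate 3. The small heat shock genes HSP12 and HSP26 were lower (-1.04 and -1.11), whereas STI1, CUR1, HSP60 and HSP10 of the same 29-gene chaperone list were higher.

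Of 30 genes of the glyoxylate cycle and gluconeogenesis, used for growth on carbon sources other than sugar, 9 were higher and 0 lower, where 4.71% of all genes were higher. The other 21 did not pass, and 6 of the 30 lay below 0, with a median of 0.26 over the list. MLS1, malate synthase, had 354, 323 and 310.0 CPM in rad30Δ cells, against 127, 137 and 128 CPM in WT cells (1.33 ± 0.09, SE, adjusted p = 5.7e-07). GUT1, glycerol kinase, had 580.3, 614 and 477 CPM in rad30Δ cells, against 282, 330.2 and 290.3 CPM in WT cells, and FBP1, fructose-1,6-bisphosphatase, had 464, 389 and 378 CPM in rad30Δ cells, against 235, 234 and 228 CPM in WT cells. SFC1, ACH1, PCK1, ICL2, CAT2 and JEN1 complete the 9. ICL1, isocitrate lyase, did not pass (0.41, adjusted p = 0.302), nor did ACS1, an acetyl-CoA synthetase, which had the lowest value of the list (-0.56, adjusted p = 0.22). Replicate 3 was the lowest of its strain in both groups for SFC1, PCK1 and JEN1.

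Phosphate genes were higher in 6 of 22, where 4.71% of all genes were higher. PHO5, the secreted acid phosphatase, had 180.4, 169.9 and 186 CPM in rad30Δ cells, against 68.6, 71.8 and 75.4 CPM in WT cells (1.31 ± 0.09, SE, adjusted p = 5.7e-07). GIT1, a glycerophosphoinositol permease, had 655, 402 and 415 CPM in rad30Δ cells, against 228, 263 and 243 CPM in WT cells. The high-affinity transporter gene PHO84 was at -0.13 and did not pass. Amino acid genes were higher in 6 of 20 for arginine and lysine and in 8 of 39 for histidine, aromatic and other amino acids, with 0 lower in either list. ARG4, HOM2 and ARO4 differed by 0.58, 0.57 and 0.52.

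Cell wall genes moved both ways, with 8 higher and 5 lower of 45, where 4.71% of all genes were higher and 6.1% lower. PST1, a cell wall protein induced by cell wall damage, had the largest rise by the rule used for naming genes outside the mating-type lists, with 336, 347 and 319 CPM in rad30Δ cells, against 121, 136 and 131 CPM in WT cells (1.37 ± 0.08, SE, adjusted p = 3.16e-07). PIR3 had 1017, 946 and 1078 CPM in rad30Δ cells, against 422, 463 and 388 CPM in WT cells. GSC2, a glucan synthase, ran the other way, with 220.3, 244 and 226 CPM in rad30Δ cells, against 352, 367 and 342 CPM in WT cells (-0.62 ± 0.06, SE, adjusted p = 4.06e-05).

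Phospholipid genes were lower in 7 of 27 and higher in 1, GIT1, with a median of -0.20, where 6.1% of all genes were lower. CHO2, a methyltransferase of phosphatidylcholine synthesis, had 229, 235 and 222 CPM in rad30Δ cells, against 317, 328 and 308 CPM in WT cells, and OPI3 and ACC1 differed by -0.31 and -0.44. Of 32 autophagy genes 4 were lower, 0 higher and 28 did not pass, where 6.1% of all genes were lower. ATG1, the kinase that starts autophagy, had 34.1, 39.6 and 30.03 CPM in rad30Δ cells, against 61.9, 74.2 and 68.3 CPM in WT cells. PDR1, a regulator of drug pumps, and TPO3, PDR10 and RSB1 were lower with YAP1 in a 27-gene list of drug transport and Yap1 targets. In that list 5 were lower and 0 higher, where 6.1% of all genes were lower and 4.71% higher.

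The largest falls by the naming rule included GEX2, a glutathione exchanger, with 5.997, 5.31 and 6.16 CPM in rad30Δ cells, against 17.8, 17.7 and 17.2 CPM in WT cells (-1.59 ± 0.19, SE), and SOR1, sorbitol dehydrogenase, at -1.53. Both have near-identical copies, GEX1 and SOR2, so the split of reads is uncertain, as it is for HXT6, a hexose transporter that was higher at 0.90. PUT1, proline oxidase, had 129, 121 and 116 CPM in rad30Δ cells, against 278, 283 and 242 CPM in WT cells, and PUT3, its activator, differed by -0.64. TKL2, a minor transketolase, had 13.7, 13.4 and 14.2 CPM in rad30Δ cells, against 29.4, 42.5 and 34.6 CPM in WT cells. RIM4, a meiotic RNA-binding protein, had 141, 189 and 167 CPM in rad30Δ cells, against 343, 397 and 340.2 CPM in WT cells.

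A list of 19 genes measured elsewhere by PCR had 15 lower and 0 higher, with a median of -0.69. Over all genes 6.1% were lower and 4.71% higher. Part of them were picked for PCR from the RNA-seq of these samples, so the count is no independent evidence of direction.

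Several lists showed few calls, where 4.71% of all genes were higher and 6.1% lower. Of 103 ribosome biogenesis genes 0 were called, of 138 cytosolic ribosomal protein genes 1 was higher, RPL15B, and 118 lay above 0, with a median of 0.10. Of 13 cohesin genes and 15 spindle checkpoint genes, 0 were called. Of 25 Mediator genes 0 were called, and of 32 genes of RNA polymerase II and elongation 1, RPB2, was lower (-0.23). Over all 6490 genes 1491 had an unadjusted p below 0.05. A count of 0 in such a list does not show that its genes were alike in both strains. In the lists of 13, 15 and 25 genes, 0 is near the share of all genes and no result about them.

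Calls spread over the genome. They made up 6.45% of genes on chromosome I and 15.7% on chromosome XIII, the lowest and highest of the nuclear chromosomes, and chromosome medians lay between -0.033 and 0.030. Within 30 kb of a chromosome end 3.35% of genes were higher and 6.42% lower, against 4.96% and 6.57% elsewhere. By length, 2.31% of the longest of 5 length classes were higher and 6.15% lower, against 5.47% and 4.53% of the shortest class, and the median over windows of 300 genes ordered by length stayed between -0.0444 and 0.0502. By level, 2.72% of the lowest of 5 level classes and 16.6% of the highest were called, so more deeply read genes gave more calls.

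The same strain difference could be read in the 6 libraries after galactose, which share none of their libraries with the comparison above but come from the same strains. Cells were taken before and after induction, so same-numbered libraries may come from the same cultures, and the second reading is then not independent of the first. There 11.6% of all genes were higher and 11.8% lower. Of the 306 genes higher in G2/M arrest 287 had the same sign after galactose (93.8%) and 223 were called higher again (72.9%). Of the 396 lower genes 380 had the same sign (96%) and 312 were called lower again (78.8%). In the proteasome list 40 of 43 were lower (median -0.61), and in the mitochondrial ribosome list 61 of 77 were higher (median 0.53).

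CIS1 (YLR346C) was the single gene called in opposite directions. Its log2 fold change was 0.66 in G2/M arrest (33.6, 29.9 and 38.2 CPM in rad30Δ cells, against 19.3, 22.3 and 22.6 CPM in WT cells) and -0.54 after galactose. The interaction of strain and galactose did not pass for it (adjusted p = 0.116). Over all genes the interaction called 0 higher and 4 lower (0.0616%), but the count moved with the fit, to 36 and 31 by DESeq2, to 11 and 8 with a replicate block within strain and to 76 and 65 without replicate 3 of the rad30Δ galactose group.

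**Figure D4:**
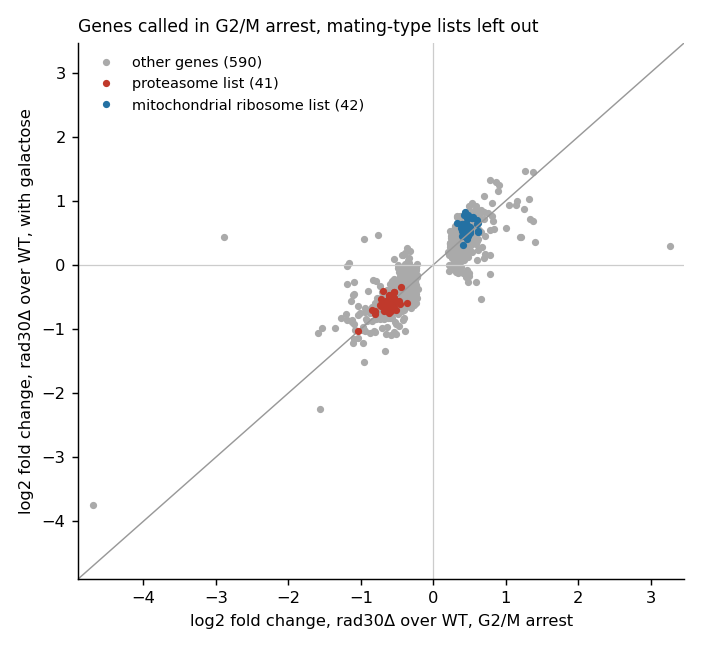
Log2 fold change (rad30Δ over WT) of the 673 genes called in G2/M arrest outside the mating-type lists, in G2/M arrest on the horizontal axis and after galactose on the vertical axis, with a line where they are equal. Of these genes 272 of 290 higher and 367 of 383 lower ones keep their sign, with the 41 called proteasome genes below 0 and the 42 called mitochondrial ribosome genes above 0 on both axes.

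Copper genes were among those with the widest spread between replicates. CTR1, the high-affinity copper transporter, had 56.7, 579.7 and 1172 CPM in rad30Δ cells, against 552, 718 and 759 CPM in WT cells. FRE1, a metal reductase, had 45.1, 243 and 494 CPM in rad30Δ cells, against 233, 343 and 416 CPM in WT cells. Replicate 1 of rad30Δ was lowest for both, as it was for FRE7 and YPR123C. Replicate 1 of WT was also the lowest of its strain for CTR1 and FRE1, by a smaller margin. None of these genes passed the test, and the strains overlapped in each. In the rad30Δ galactose group replicate 1 was again the lowest for CTR1, with 49.9, 263 and 517 CPM.

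**Figure D5:**
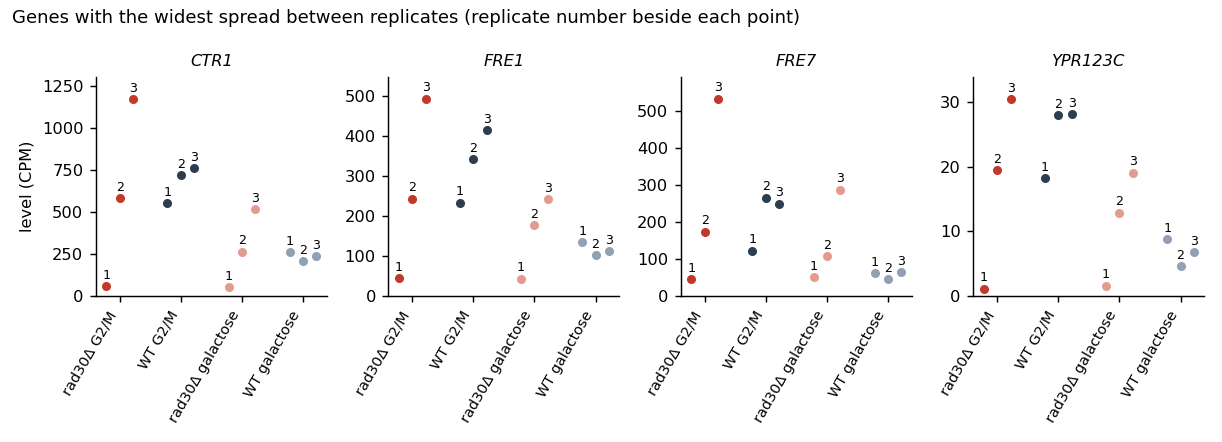
Level (CPM) of 4 genes in each of the 12 libraries, with the replicate number beside each point and rad30Δ left of WT in G2/M arrest and again after galactose. Replicate 1 is the lowest rad30Δ library in every panel, as with CTR1 at 56.7 CPM against 579.7 and 1172 CPM for replicates 2 and 3 in G2/M arrest. It is also the lowest WT library in G2/M arrest for CTR1 and FRE1.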

How the data were processed

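Polyadenylated RNA of W303 derivatives was sequenced in 12 samples, 3 in each of 4 groups. The authors used cutadapt for trimming and HISAT2 for alignment to sacCer3 (R64), removed duplicates with Picard, which can lower the counts of the most abundant genes, and deposited raw counts per gene from featureCounts. The sources used here give neither tool versions nor strandedness. The deposited tables of the authors' own comparisons hold fold changes, p-values and pooled means, and were not used.

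Genes with at least 10 reads over the 12 libraries were normalized by TMM and fitted over 4 groups with the quasi-likelihood test of edgeR 4.0.16 in R 4.3.3, with Benjamini-Hochberg adjustment at 0.05. The 12 libraries share 1 estimate of the spread. Alternatives used limma 3.58.1 and DESeq2 1.42.0. Symbols and positions of 6044 features, and promoter letters, come from RefSeq R64. The fit was tested on simulated data.

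The members, the 57 gene lists and the motifs were chosen with earlier results of these data known. Named are all tested members of the a-specific, α-specific and mating locus lists, the list beside mating-type genes, and the strain marker and PCR lists. So are the 20 largest rises and 20 largest falls among called genes outside the mating-type lists. These had a mean of at least 10 CPM and no overlap. Every other list, that of pheromone signalling included, gave up to 4 members by smallest p. Further ones are 3 genes on each side of RAD30, up to 6 genes of the interaction and up to 6 with the widest replicate spread. Other genes were named after their values were seen.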

Additional observations from a re-analysis of the deposited data

Results flagged for a closer look

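For 4 genes the strain difference after galactose differed from that in G2/M arrest by the test of the difference itself (interaction of strain and galactose, edgeR). All 4 are α-specific genes or lie beside one. MF(ALPHA)2 had 172, 151 and 178 CPM in rad30Δ cells, against 30.7, 27.1 and 27.0 CPM in WT cells after galactose. In G2/M arrest it had 1126, 974 and 1119 CPM in rad30Δ cells, against 42.9, 37.3 and 35.7 CPM in WT cells. The difference of log2 fold changes was -2.235 (adjusted p = 8.23e-06). STE3 had 82.1, 102 and 105 CPM in rad30Δ cells, against 6.04, 7.41 and 4.72 CPM in WT cells after galactose, a difference of -1.837 (adjusted p = 0.00483). SAG1 differed by -1.587 (adjusted p = 0.000287), with 158, 128 and 182 CPM in rad30Δ cells, against 71.4, 65.8 and 64.5 CPM in WT cells after galactose. LIF1 differed by -1.545 (adjusted p = 5.09e-05), with 39.8, 33.0 and 37.6 CPM in rad30Δ cells, against 25.9, 27.8 and 22.9 CPM in WT cells after galactose. The number of genes called moved widely with the fit and the libraries: 36 higher and 31 lower by DESeq2, and 76 and 65 without replicate 3 of rad30Δ after galactose, against 0 and 4 here. The cause was not tested.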

How the results depend on the processing

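Of 276 named genes 171 were called, and 90 of these kept call and direction under all 24 alternatives; 54 lost the call when some 1 library was left out, and no value turned its direction past the threshold. Fitted on the 6 G2/M libraries alone, 506 genes were higher (489 outside the mating-type lists), 71 in the mitochondrial ribosome list and 237 with the Puf3 element. With a replicate block in those 6 libraries the counts were 552 higher and 617 lower (534 and 602 outside), 72, 15 for glyoxylate and gluconeogenesis, 17 for stress and 246 with the Puf3 element. Over 12 libraries the replicate block gave 336 and 422. Residuals of same-numbered libraries of the strains correlated at 0.005, 0.16 and 0.008 over all genes and at 0.053, 0.32 and 0.075 over the 5433 genes with at least 10 CPM, not every pair above 0.1, so the numbers were not taken to pair them. Tested against a 1.2-fold change (glmTreat), the counts were 52 higher and 149 lower (41 and 139 outside), or 25.9% higher instead of 43.6% of calls, and 4 for the mitochondrial ribosome, 5 for DNA damage, 5 for stress and 15 with the Puf3 element. Leaving out 1 library gave 131 to 528 higher and 248 to 577 lower (119 to 510 and 238 to 562 outside), 15 to 71 mitochondrial ribosome, 6 to 12 glyoxylate, 7 to 14 DNA damage, 7 to 14 stress and 55 to 238 Puf3 element genes. The interaction called 0 higher and 4 lower, against 36 and 31 by DESeq2, 11 and 8 with a replicate block within strain, and 0 to 76 and 4 to 65 with 1 library left out, the highest without replicate 3 of rad30Δ after galactose; 1 higher was called without replicate 1 of that group. Counts of the proteasome list (37 to 42) and of Rpn4 element genes (34 to 54) stayed within 1.5 times the main value. These counts across settings for lists were added after the data were seen. Scaling moved the median of all genes to -0.0172 at most. At 6244219 to 7289514 reads a G2/M library, 2.72% of genes in the lowest of 5 level classes were called.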

Other observations

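HO had 35.7, 38.9 and 40.0 CPM in rad30Δ cells, against 36.7, 41.4 and 42.8 CPM in WT cells, and SMC1 had 147, 147 and 165 CPM in rad30Δ cells, against 168, 184 and 190.4 CPM in WT cells, with neither passing the test. The 13 listed cohesin genes summed to 810 to 875 CPM in rad30Δ cells and 908 to 942 CPM in WT cells in G2/M arrest. After galactose they summed to 4204 to 4951 CPM in rad30Δ cells and 6193 to 6533 CPM in WT cells. Whether this rise reflects galactose-inducible SMC1-MYC was not tested. Genes of tubulin and microtubules, the target of benomyl, were lower in 3 of 18 and higher in 0. Over all genes 6.1% were lower and 4.71% higher. TUB2, β-tubulin, had 371, 377 and 310.2 CPM in rad30Δ cells, against 439, 475 and 459 CPM in WT cells, and KIP1, a mitotic kinesin, differed by -0.57. Of 14 silencing genes 1, SIR3, was higher (0.25) and 1, HST1, was lower (-0.42). These counts are near the 4.71% of all genes that were higher and 6.1% lower, and are no result about the list.

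The Gcn4 site TGACTC stood in 11% of called higher and 6.81% of called lower promoters, against 8.12% of all, and the stress response element AGGGG in 18.4% and 23.8%, against 21.8% of all. The letters CAATGACA, part of the α1 element, stood in 0 of 5 α-specific promoters, which says only that these letters are not in the windows read.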
